A study of Neurospora crassa with 24 samples.

Results

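The 6 genes described here encode the STRIPAK complex of *Neurospora crassa*, and they were taken by locus tag from a table of 10561 genes: *ham-2* (NCU03727), *ham-3* (NCU08741), *ham-4* (NCU00528), *mob-3* (NCU07674), *ppg-1* (NCU06563) and *pp2A-A* (NCU00488). STRIPAK (striatin-interacting phosphatase and kinase) is a signaling complex conserved from fungi to animals. It is built around striatin, a scaffold protein that holds the phosphatase PP2A together with partner proteins at the nuclear envelope and other membranes. In filamentous fungi it is known for its requirement in hyphal fusion and in the formation of sexual fruiting bodies. In *N. crassa* it has been connected to the entry of the cell wall integrity kinase MAK-1 into the nucleus.

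mRNA was measured by RNA-seq of poly(A) RNA in sexual tissue on crossing medium, collected 1 day before fertilization. The mutants were ∆*ve-1*, a deletion of the gene for the velvet regulator VE-1, ∆*wc-1* (white-collar), a deletion of that for the photoreceptor of blue light, and the double mutant ∆*ve-1* ∆*wc-1*. They were compared with the wild type, and each of the 4 strains was kept in light and in the dark, with 3 libraries for each of the 8 conditions. Tissue from biological replicates was pooled before RNA extraction and the labels do not say how the pools relate to the libraries, so the p-values measure the spread between libraries, which may be technical.

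The 24 libraries held 30246878 to 42697941 counts each. Levels are given as CPM, the depth-normalized read count, with each library scaled by its total and its TMM factor (trimmed mean of M values), and ± is the SD of 3 libraries. All 6 genes passed the filter on low counts, which 9412 genes passed in all. A gene was called a DEG when edgeR's quasi-likelihood test, fitted to all 24 libraries, gave a Benjamini-Hochberg adjusted p below 0.05 and the log2 fold change was above 1 or below -1. *ve-1* averaged 2.80 to 5.80 CPM in the conditions that lack it and 210 to 268 CPM elsewhere. *wc-1* was not low in the libraries labelled as lacking it, with 51.5 and 67.3 CPM in ∆*ve-1* ∆*wc-1* (light and dark) and 25.0 and 59.9 CPM in ∆*wc-1*, against 30.1 and 21.8 CPM in the wild type. The libraries carrying that deletion are therefore called by their label throughout. The labelled tissue was checked with 5 genes of female sexual structures. All 5 were detected in every condition, but *app* averaged 0.947 CPM in ∆*ve-1* dark and was at 0 in 1 ∆*wc-1* light library.

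The libraries differed in composition, and these values stand beside every result below. Of all counts, the top 10 genes of a library took 18.7 to 27.1% in wild-type light and 16.3 to 21.4% in ∆*ve-1* dark, but 6.70 to 7.16% in the dark libraries with the ∆*wc-1* label and 6.41 to 9.31% in wild-type dark. The other conditions were mixed. In the light libraries with the ∆*wc-1* label, library 1 had 26.7% and the others 7.31 and 6.91%. In those with the ∆*ve-1* ∆*wc-1* label, library 2 stood apart with 21.3% in light and 23.9% in the dark, where the others had 7.38 to 9.13%. In ∆*ve-1* light the shares were 8.62, 15.2 and 19.4%. This share went together with the share of even counts among genes of 100 to 1000 counts (59.8 to 93.3%, r = 0.92 over 24 libraries).

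The STRIPAK genes were expressed in every library, at 10.5 to 296 CPM. Per kb of gene span (introns included), which allows genes to be compared, *pp2A-A* had the highest mean over the 24 libraries at 38.8 CPM per kb. *ppg-1*, *ham-3* and *ham-2* followed at 19.8, 19.5 and 17.2 CPM per kb, and *ham-4* and *mob-3* were lowest at 8.77 and 8.74 CPM per kb. The genes lie apart from each other in the NC12 assembly, as RefSeq annotates it, on chromosomes V (*ham-2*, 2223109 to 2227285), II (*ham-3*, 3855430 to 3859274), I (*ham-4*, 8112407 to 8116828), IV (*mob-3*, 2282977 to 2286219, and *ppg-1*, 1637071 to 1639185) and III (*pp2A-A*, 4028859 to 4032413).

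*ham-3*, which encodes striatin, the scaffold of the complex, varied most. It had 242, 103 and 151 CPM in wild-type light, against 36.2, 46.8 and 38.5 CPM in wild-type dark, so that every light library lay above every dark library. In the light libraries with the ∆*wc-1* label, library 1 had 296 CPM, the highest value of all, whereas the other 2 had 39.7 and 49.6 CPM, close to the 37.8, 39.2 and 44.7 CPM of the dark libraries of that strain. In ∆*ve-1* the gene had 42.4, 55.6 and 94.1 CPM in light and 79.1, 47.6 and 66.2 CPM in the dark. In the libraries with the ∆*ve-1* ∆*wc-1* label it had 41.5, 91.4 and 25.8 CPM in light and 25.5, 66.7 and 34.8 CPM in the dark, with library 2 highest in both. The level thus spanned 11.6-fold over the 24 libraries, against 2.82-fold (*pp2A-A*) to 4.26-fold (*mob-3*) for the other members. By condition means the order ran from wild-type light (166 ± 70.4 CPM, n = 3) to wild-type dark (40.5 ± 5.56 CPM, n = 3), but no step between neighbours in that order exceeded the larger of their SDs.

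*ham-2* encodes a membrane protein of the complex. It had 193.6 CPM in light library 1 with the ∆*wc-1* label, while its other 23 values lay between 46.0 and 93.4 CPM. In wild-type light it had 93.4, 74.5 and 73.6 CPM, all above the 63.1, 71.5 and 52.6 CPM of wild-type dark. The means of ∆*ve-1* were 61.5 ± 4.32 CPM in light and 61.9 ± 12.6 CPM in the dark (n = 3 each), less than 1 SD from wild-type dark (62.4 ± 9.49 CPM, n = 3). The libraries with the ∆*ve-1* ∆*wc-1* label averaged 67.1 ± 18.9 CPM in light and 58.4 ± 9.31 CPM in the dark (n = 3 each).

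*ham-4* encodes the SLMAP-like subunit, a tail-anchored protein with a forkhead-associated domain. Its condition means lay within 31.7 and 45.2 CPM, and no neighbours in their order differed beyond the larger SD. Single libraries stood apart within conditions, in several of them in the direction opposite to *ham-3*. In the libraries with the ∆*ve-1* ∆*wc-1* label it had 42.8, 26.4 and 61.1 CPM in light and 58.1, 25.6 and 51.8 CPM in the dark, with library 2 lowest in both. Light library 1 with the ∆*wc-1* label had the lowest value of all, 19.2 CPM, where the other 2 had 39.7 and 36.2 CPM. In ∆*ve-1* light it had 58.7, 21.5 and 30.8 CPM, highest in library 1, where *ham-3* was lowest. In wild-type light it had 34.9, 28.2 and 57.5 CPM, highest in library 3, while *ham-3* was lowest in library 2.

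*mob-3* encodes the phocein (MOB4-like) subunit. It had 27.1, 17.4 and 19.1 CPM in wild-type light, against 35.6, 35.9 and 35.6 CPM in wild-type dark, with no overlap. ∆*ve-1* was close to wild-type light in both conditions, with 30.1, 19.3 and 18.8 CPM in light and 15.2, 25.2 and 20.6 CPM in the dark. The dark libraries with the ∆*wc-1* label were the highest condition (41.6 ± 3.66 CPM, n = 3), above wild-type dark (35.7 ± 0.173 CPM, n = 3) by more than the larger SD. In light that strain had 44.5 and 35.8 CPM in libraries 2 and 3 and 10.5 CPM in library 1, again the extreme of the whole series. The libraries with the ∆*ve-1* ∆*wc-1* label averaged 28.2 ± 5.96 CPM in light and 26.8 ± 3.41 CPM in the dark (n = 3 each).

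*ppg-1* encodes the catalytic subunit of the phosphatase. It had 99.2, 82.7 and 31.6 CPM in wild-type light, against 31.7, 36.0 and 45.2 CPM in wild-type dark, so 2 of the 3 light libraries lay above the dark range and the remaining one at its lower end. Its other condition means ran from 33.4 ± 5.18 CPM (light libraries with the ∆*ve-1* ∆*wc-1* label, n = 3) to 45.4 ± 14.1 CPM (light libraries with the ∆*wc-1* label, n = 3), and neighbours in the order differed by less than the larger SD.

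*pp2A-A* encodes the scaffold subunit of PP2A, which also serves PP2A outside STRIPAK. It had 119, 115.5 and 155 CPM in wild-type light, against 188, 159 and 195 CPM in wild-type dark, with no overlap. The lowest means were those of ∆*ve-1*, with 101 ± 42.9 CPM in light and 102 ± 4.93 CPM in the dark (n = 3 each). In ∆*ve-1* light this mean joined 149.8 CPM in library 1 with 83.0 and 69.8 CPM in the others. The libraries with the ∆*ve-1* ∆*wc-1* label split in the same way, with 92.8 and 79.7 CPM in library 2 (light and dark) and 128 to 165 CPM in the other 4. Light library 1 with the ∆*wc-1* label had 102 CPM, where the others had 197 and 191 CPM. The dark libraries of that label averaged 172 ± 18.3 CPM (n = 3).

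**Figure D1:**
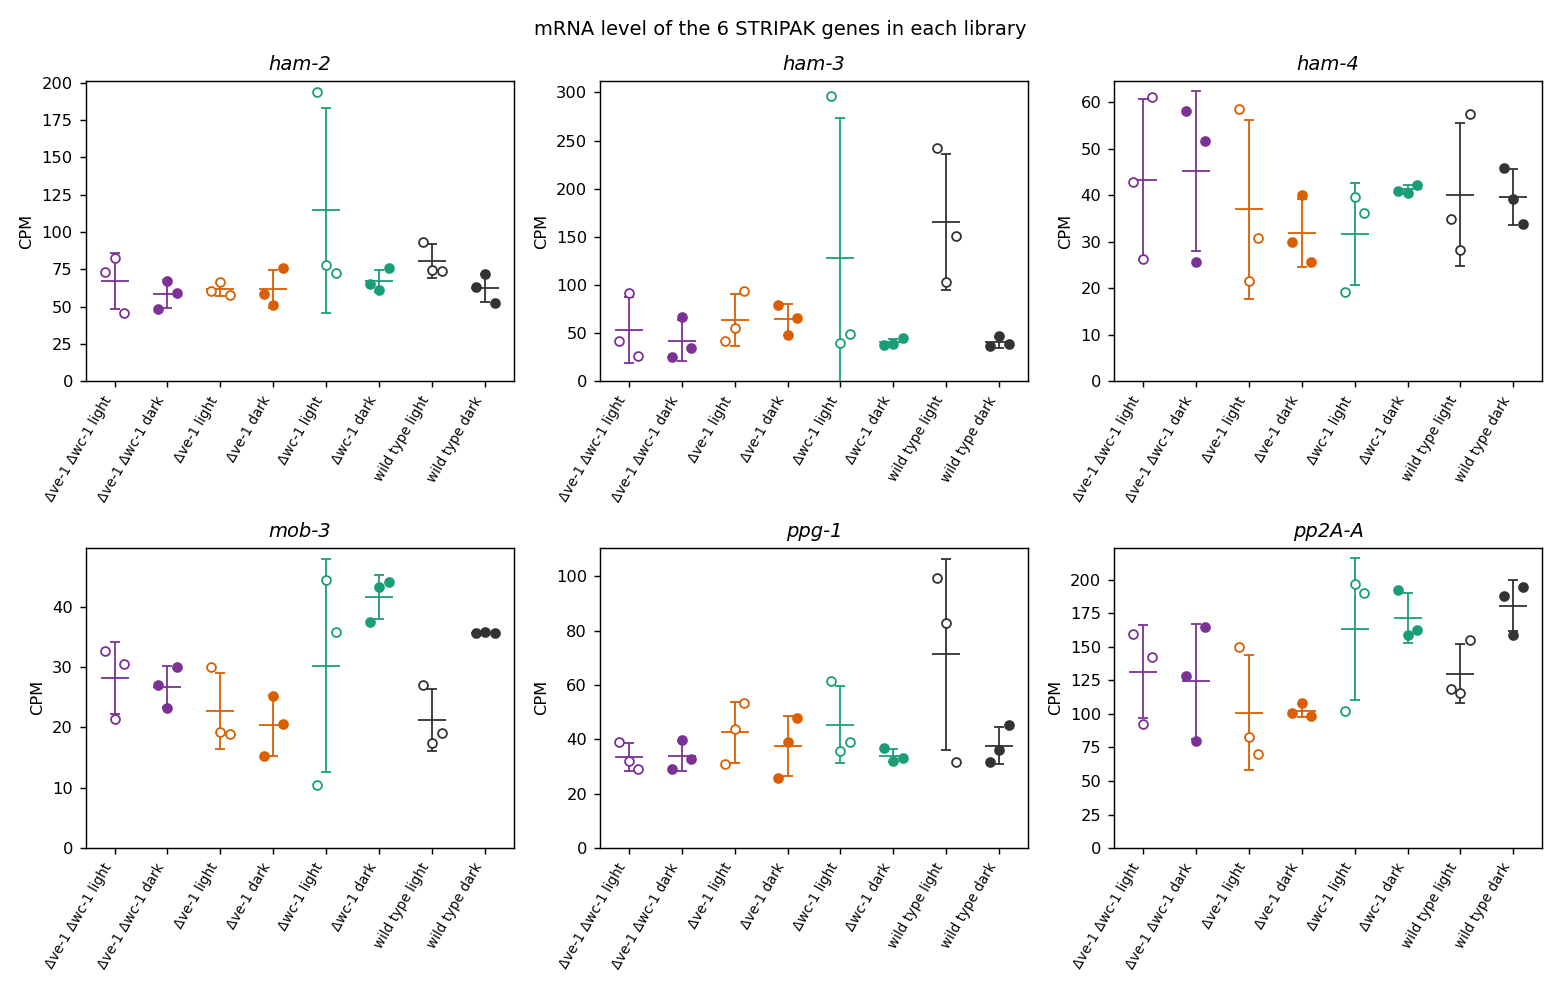
mRNA level (CPM, linear axis from 0) of each of the 6 STRIPAK genes in the 24 libraries. Open circles are light libraries, filled circles dark libraries, long bars the mean and error bars the SD of 3 libraries; names with ∆wc-1 are labels, and the lower SD bar of *ham-3* in ∆wc-1 light runs below the axis. *ham-3* reached 103 to 242 CPM in wild-type light, and 1 ∆wc-1 light library was the extreme of the whole series for *ham-2*, *ham-3*, *ham-4* and *mob-3*.

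The first question was whether light changes the mRNA levels of these genes in each strain. In the wild type, only *ham-3* was a DEG, 1 of 6 members where 11.4% of the 9412 genes were called. Its level in light was 4.09 times that in the dark, a log2 fold change of 2.03 (SE 0.62, 95% interval 0.75 to 3.31, adjusted p = 0.0355 in edgeR). For *ppg-1* the log2 value was 0.92 (SE 0.35, adjusted p = 0.0854 in edgeR), which did not pass. The values were 0.37 for *ham-2*, 0.02 for *ham-4*, -0.75 for *mob-3* (adjusted p = 0.178 in edgeR) and -0.48 for *pp2A-A* (adjusted p = 0.344 in edgeR). The median over the 6 members was 0.19, against -0.07 over all genes tested. The 3 light and 3 dark libraries did not overlap for 4 of 6 members (*ham-2* and *ham-3* higher in light, *mob-3* and *pp2A-A* lower), where 40.9% of all genes did not overlap.

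The call of *ham-3* held under RLE scaling, under either filter, with limma-voom and with DESeq2, but not in every fit. With the share of the 10 most abundant genes as a covariate the log2 fold change was 0.10 (adjusted p = 0.88 in edgeR), and with the share of even counts it was 0.17 (adjusted p = 0.768 in edgeR). With library totals alone it was 1.26 (adjusted p = 0.0358 in edgeR), while the median of all genes moved to -0.80. On that scaling *ham-2* and *ham-4* had the opposite sign, -0.39 and -0.70. It also did not pass without wild-type light library 1 (1.65, adjusted p = 0.145 in edgeR), nor without any single wild-type dark library (1.96 to 2.15, adjusted p = 0.0823 to 0.119 in edgeR). Without wild-type light library 3, the one at 31.6 CPM, *ppg-1* also passed (1.27, adjusted p = 0.0143 in edgeR). The markers of conidia, the asexual spores, moved with this comparison. Several of the markers are also induced by light, so conidia and induction by light cannot be told apart here. Of 5 markers, 4 rose in light, where 5.13% of all genes did, and none was at 0. Their summed level was 84638 to 138775 CPM in wild-type light and 1007 to 3401 CPM in wild-type dark. Their part in the *ham-3* difference was not tested.

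In the mutants light made no member a DEG. In ∆*ve-1*, where 0.106% of genes were called, *ham-3* had a log2 fold change of -0.01 (SE 0.59, 95% interval -1.24 to 1.23), and the 6 values ran from -0.02 (*pp2A-A*) to 0.21 (*ham-4*). The libraries of all 6 members overlapped, and 15.9% of all genes did not. In the libraries with the ∆*ve-1* ∆*wc-1* label, where 0% of genes were called and 1.86% did not overlap, the values ran from -0.06 (*ham-4*) to 0.32 (*ham-3*), again with overlap for all 6. Those with the ∆*wc-1* label also had 0% of genes called, although 1323 genes had an unadjusted p below 0.05 in edgeR. There the light effect was 1.66 (log2) for *ham-3* (SE 0.61, adjusted p = 0.253 in edgeR) and 0.77 for *ham-2* (SE 0.32, adjusted p = 0.291 in edgeR). Both rested on library 1: without it the values were 0.14 for *ham-3* and 0.16 for *ham-2* (adjusted p = 1 each in edgeR). Only *ham-4* was free of overlap there, lower in light, where 29.7% of all genes did not overlap.

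**Figure D2:**
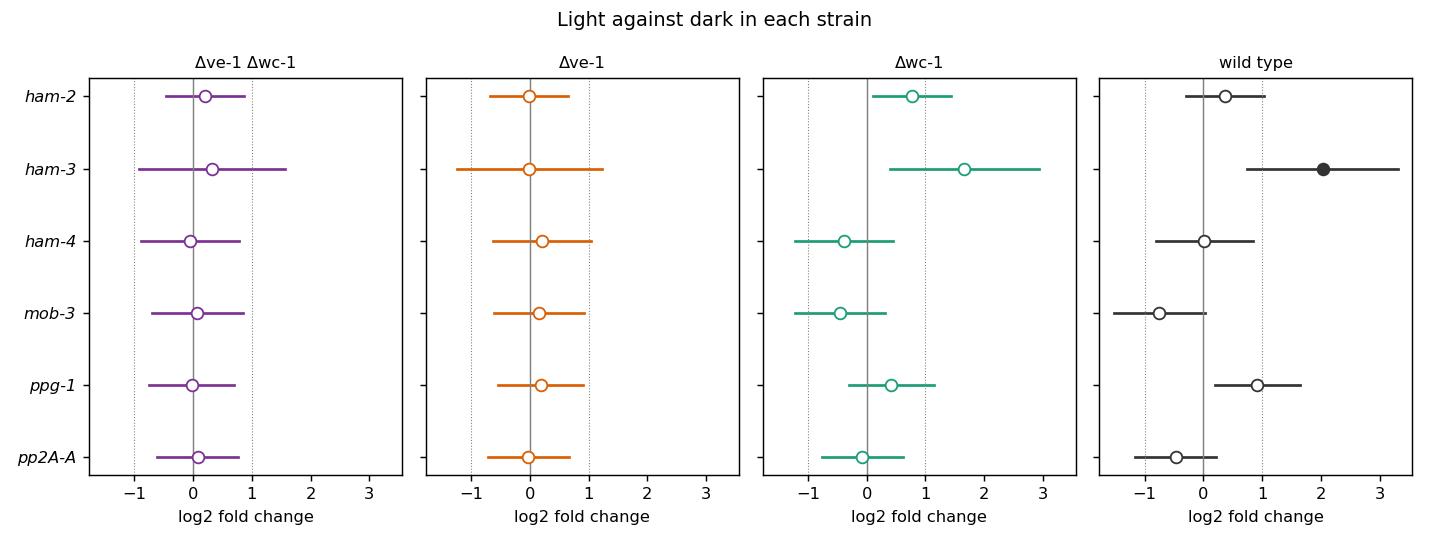
log2 fold change of light against dark for each STRIPAK gene in each strain (columns), with its 95% interval from edgeR. The filled point is the only DEG, dotted lines mark -1 and 1, and names with ∆wc-1 are labels. *ham-3* stood at 2.03 in the wild type, -0.01 in ∆ve-1, 0.32 in ∆ve-1 ∆wc-1 and 1.66 in ∆wc-1, where 1 library set the value.

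The differences between these light effects were tested in the same fit, and no member passed. For *ham-3* the light effect in ∆*ve-1* was lower than in the wild type by a log2 value of -2.04 (SE 0.85, unadjusted p = 0.0257, adjusted p = 0.192 in edgeR), where 0.786% of all genes were called. For the libraries with the ∆*ve-1* ∆*wc-1* label the difference was -1.71 (SE 0.85, adjusted p = 0.275 in edgeR), with 3.08% of genes called. For those with the ∆*wc-1* label it was -0.37 (SE 0.84, adjusted p = 0.92 in edgeR), with 2.44% called, and -1.89 (adjusted p = 0.12 in edgeR) without light library 1. All 3 differences share the wild-type libraries. The difference for ∆*ve-1* passed when only the 4 conditions concerned were fitted (adjusted p = 0.0295 in edgeR), so its call depended on which libraries set the spread. It also depended on other choices. Over 12 alternative settings, such as scaling, filter, covariates and tool, it ran from -2.12 to 0.68, and 3 of them passed. Its sign was thus not kept in all of them. The intervals were wide, from -3.80 to -0.27 for ∆*ve-1*.

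The second question was whether the deletions change the levels of these genes under each light condition. In ∆*ve-1* dark against wild-type dark no member was a DEG, where 23.0% of all genes were. *pp2A-A* stood at -0.82 (log2) (SE 0.33, 95% interval -1.51 to -0.13, adjusted p = 0.0736 in edgeR) and *mob-3* at -0.81 (SE 0.37, 95% interval -1.59 to -0.04, adjusted p = 0.11 in edgeR). Both genes had all 3 ∆*ve-1* libraries below all 3 wild-type libraries. Without light library 1 with the ∆*wc-1* label, which is outside the comparison, their adjusted p were 0.0394 and 0.0193 in edgeR, still short of the fold threshold. Over the 12 alternative settings (edgeR, limma-voom or DESeq2) the adjusted p ran from 7.8e-04 to 0.69 for *pp2A-A* and from 0.0031 to 0.806 for *mob-3*. The log2 values ran from -1.57 to -0.16 and from -1.54 to -0.13. Settings that passed on adjusted p fell short on the fold change, so neither gene was called in any. *ham-3* was free of overlap in the other direction (0.67, SE 0.60, adjusted p = 0.425 in edgeR), and *ham-2* and *ppg-1* had -0.01 each. Thus 3 of 6 members did not overlap, where 58.6% of all genes did not. With the share of the 10 most abundant genes as a covariate, the values were -0.16 for *pp2A-A*, -0.13 for *mob-3* and -0.86 for *ham-3*, the last with the opposite sign (adjusted p = 0.69, 0.806 and 0.0738 in edgeR).

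In ∆*ve-1* light against wild-type light no member was a DEG, where 4.32% of genes were called. *ham-3* had 42.4 to 94.1 CPM in ∆*ve-1*, against 103 to 242 CPM in the wild type (log2 -1.37, SE 0.60, adjusted p = 0.203 in edgeR). *ppg-1* had -0.74 (SE 0.35, adjusted p = 0.231 in edgeR). *ham-2* and *ham-3* did not overlap, both lower in ∆*ve-1*, 2 of 6 members where 24.9% of all genes did not overlap. The *ham-3* difference passed with limma-voom (-1.37, adjusted p = 0.015) and with DESeq2 on the 6 libraries compared (-1.40, adjusted p = 0.037). These were 2 of 12 alternative settings, over which the value ran from -1.41 to 0.07. It also passed in edgeR without light library 1 with the ∆*wc-1* label (adjusted p = 0.0481), a library outside the comparison.

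Against the wild type in light, the libraries with the ∆*ve-1* ∆*wc-1* label stood at -1.65 (log2) for *ham-3* (SE 0.61, 95% interval -2.91 to -0.38, adjusted p = 0.104 in edgeR) and -1.09 for *ppg-1* (SE 0.35, 95% interval -1.82 to -0.36, adjusted p = 0.0632 in edgeR). Neither passed, 6.53% of genes did, and the median of all genes was 0.14. *ham-3* was the 1 member without overlap, at 25.8 to 91.4 CPM against 103 to 242 CPM in the wild type, where 22.3% of genes did not overlap. The *ppg-1* difference passed without wild-type light library 3 (-1.45, adjusted p = 0.0078 in edgeR), and both passed without light library 1 with the ∆*wc-1* label (adjusted p = 0.0174 for *ham-3* and 0.0331 for *ppg-1* in edgeR). In the dark, the 6 values of this strain against the wild type ran from -0.54 (*pp2A-A*) to 0.19 (*ham-4*), with 11.3% of genes called. Only *mob-3* did not overlap, at 23.3 to 30.1 CPM against 35.6 to 35.9 CPM in the wild type, where 38.1% of genes did not (adjusted p = 0.504 in edgeR).

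The libraries with the ∆*wc-1* label had no member called against the wild type. In light, where 10.5% of genes were called and 22.9% did not overlap, all 6 members overlapped and the values ran from -0.65 (*ppg-1*) to 0.52 (*mob-3*). *ham-3* had -0.37 (SE 0.59, adjusted p = 0.762 in edgeR), but without light library 1 it had -1.89 and passed (adjusted p = 0.0182 in edgeR). *mob-3* then had 0.92 (adjusted p = 0.0307 in edgeR), short of the fold threshold. In the dark the values ran from -0.15 (*ppg-1*) to 0.22 (*mob-3*), 0.0106% of genes were called, and *mob-3* did not overlap (37.4 to 44.1 CPM, against 35.6 to 35.9 CPM in the wild type), where 15.5% of genes did not.

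**Figure D3:**
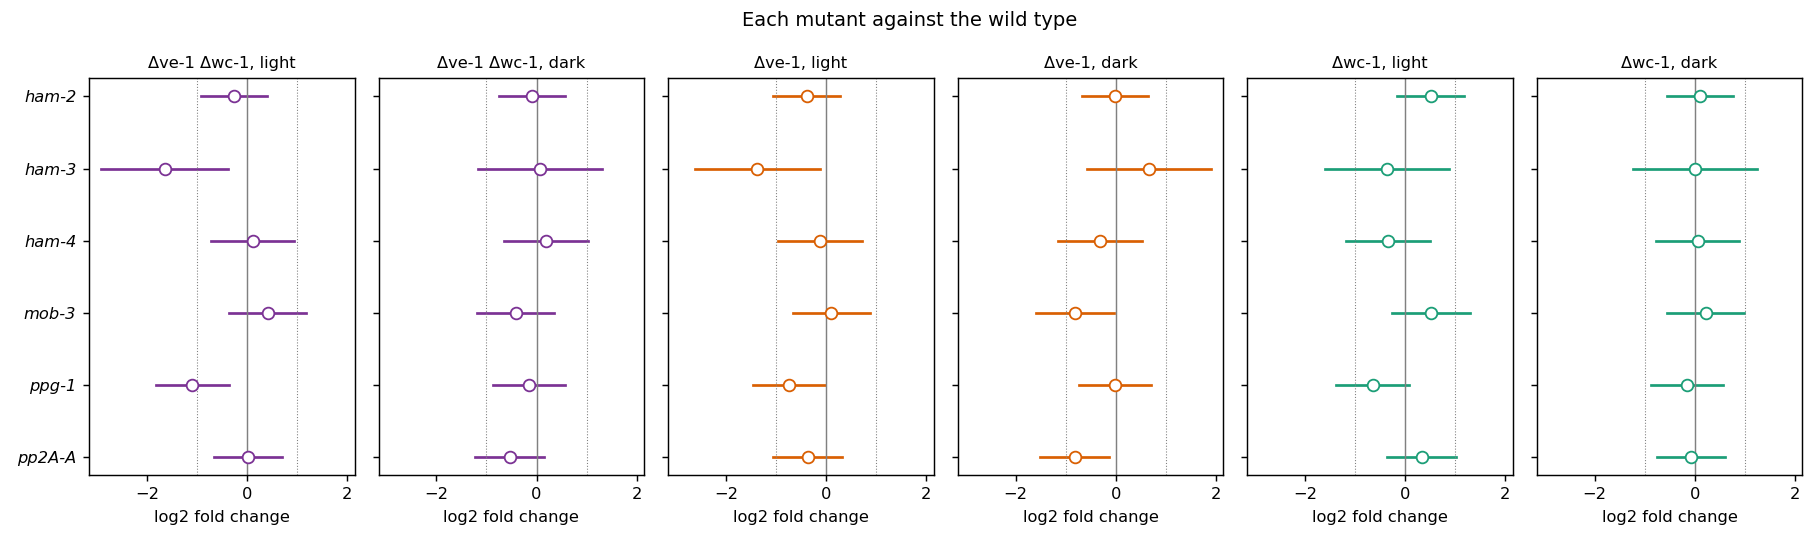
log2 fold change of each mutant against the wild type for each STRIPAK gene, in light and in the dark, with its 95% interval from edgeR. Open points did not pass the test, dotted lines mark -1 and 1, and names with ∆wc-1 are labels. No point is filled; *ham-3* was lowest in light, at -1.65 in ∆ve-1 ∆wc-1 and -1.37 in ∆ve-1.

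The libraries with the ∆*ve-1* ∆*wc-1* label were also compared with each parent deletion. No member passed against ∆*ve-1*, where 0.701% of genes were called in light and 0.0212% in the dark, or against the libraries with the ∆*wc-1* label, where 12.5% were called in light and 12.5% in the dark. Against ∆*ve-1* the values lay between -0.35 (*ppg-1*) and 0.38 (*pp2A-A*) in light and between -0.60 (*ham-3*) and 0.50 (*ham-4*) in the dark. Against the libraries with the ∆*wc-1* label in light, *ham-3* had -1.28 (SE 0.60, adjusted p = 0.169 in edgeR) and *ham-2* -0.77 (SE 0.32, adjusted p = 0.117 in edgeR), and without light library 1 with the ∆*wc-1* label the values were 0.24 and -0.16. In the dark the lowest value was that of *mob-3* (-0.64, adjusted p = 0.264 in edgeR).

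The genes around STRIPAK in the same signaling network gave other counts. In ∆*ve-1* dark against wild-type dark, 10 of 12 other hyphal fusion genes fell, where 11.9% of all genes did, with a median log2 fold change of -2.28, against -0.16 for the STRIPAK members and -0.05 for all genes. Among them, *ham-7* (NCU00881), a cell wall sensor upstream of MAK-1, fell by 2.93 on the log2 scale and *ham-8* (NCU02811), a gene required for fusion, fell by 3.32 (adjusted p = 1.0e-04 and 5.6e-04 in edgeR). Of the MAK-1 cascade 3 of 5 genes fell and of the MAK-2 cascade 3 of 6, where *mak-1* fell by 1.61 and *mak-2* fell by 2.01 (adjusted p = 0.0034 and 0.0035 in edgeR). Of 5 other genes of the PP2A family, 0 were called in edgeR (3 at an unadjusted p below 0.05), as were 0 of the 6 STRIPAK members (2 at an unadjusted p below 0.05). The median log2 fold change of these PP2A-family genes was -0.76. Of 5 genes for MOB proteins, NDR kinases and germinal centre kinases, 1 fell, and their median was -0.78. Of all genes, 39.5% had an unadjusted p below 0.05 in edgeR in that comparison, and 23.0% were called. DESeq2 also called 0 of the STRIPAK members there, by the same thresholds on adjusted p and fold change. In the same comparison all 5 conidial markers rose, where 11.1% of all genes did. Their summed level was 17815 to 36089 CPM in ∆*ve-1* dark and 1007 to 3401 CPM in wild-type dark. Of the 5 genes of female structures 2 fell, among them *app* (-8.13, adjusted p = 0.0057 in edgeR), and 1 rose, *asd-3* (1.69, adjusted p = 0.0336 in edgeR), and their summed level was 312 to 574 CPM in ∆*ve-1* dark and 424 to 7410 CPM in wild-type dark. The part of both marker lists in these counts was not tested. Nor was that of library composition, since the covariate fits were read for the STRIPAK members and not for the other lists.

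Other comparisons with the wild type gave these counts. In ∆*ve-1* light, where 2.58% of all genes fell, 2 of 12 fusion genes (NCU03960, -2.88, and *ham-7*, -1.65) and 1 of 5 genes of the MAK-1 cascade (the transcription factor gene *adv-1*, -1.80) fell (adjusted p = 0.0087, 0.0208 and 0.0031 in edgeR). In the light libraries with the ∆*ve-1* ∆*wc-1* label, where 3.50% fell, the genes that fell were 1 of 12 (NCU03960) and 1 of 5 (*adv-1*). In the dark libraries with the ∆*ve-1* ∆*wc-1* label, 5 of 12 fusion genes and 2 of 5 genes of the MAK-1 cascade fell, where 5.56% of all genes did. In the light libraries with the ∆*wc-1* label, where 5.77% of all genes rose, 3 of 5 genes of the MAK-1 cascade rose, with *mak-1* at 1.13 (adjusted p = 0.0386 in edgeR), and 1 of 12 fusion genes rose, *ham-7* (2.83-fold, adjusted p = 0.0147 in edgeR). 1 PP2A-family gene, NCU04810, rose there too (1.57, adjusted p = 0.0055 in edgeR). All 5 conidial markers fell in that comparison, where 4.77% of all genes did. Their summed level was 648 to 3775 CPM, against 84638 to 138775 CPM in the wild type. Conidia and induction by light cannot be told apart there either. In wild-type light against dark, *ham-8* was the 1 of 12 fusion genes that fell (-1.81, adjusted p = 0.0301 in edgeR), where 6.23% of all genes did.

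The levels of several members went with the composition of the library. Over the 24 libraries, which share their scaling and fall into 8 conditions, the correlation of log2 CPM with the log2 share of the 10 most abundant genes was 0.85 for *ham-3*, -0.83 for *mob-3*, -0.76 for *pp2A-A*, -0.60 for *ham-4*, 0.50 for *ppg-1* and 0.43 for *ham-2*. After the mean of each condition was taken away it was 0.91 for *ham-3*, 0.69 for *ham-2*, 0.37 for *ppg-1*, -0.75 for *mob-3*, -0.77 for *ham-4* and -0.84 for *pp2A-A*. Among all genes tested, 95.5% had a lower correlation than *ham-3*, 81.0% than *ppg-1*, 78.3% than *ham-2*, 19.5% than *ham-4*, 6.23% than *pp2A-A* and 1.98% than *mob-3*. Spearman's rho was 0.29 for *ham-2* and 0.36 for *ppg-1*. The cause of this relation was not tested, and in the wild type composition and light cannot be told apart, since all 3 light libraries had a higher share than all 3 dark libraries.

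**Figure D4:**
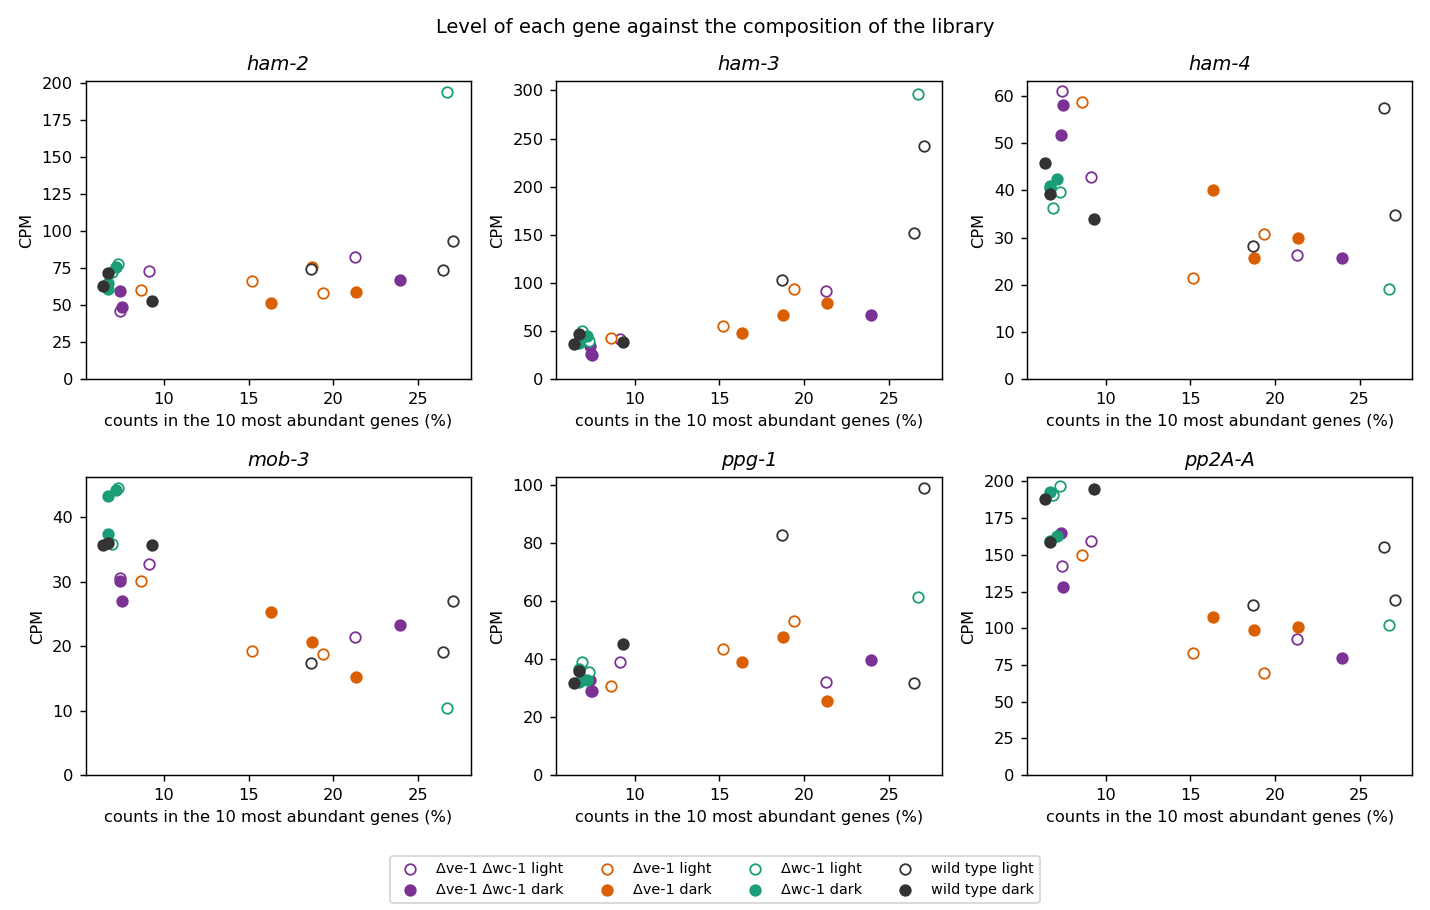
Level of each STRIPAK gene (CPM) against the percentage of a library's counts in its top 10 genes, 1 point for each of the 24 libraries. Open circles are light and filled circles dark, colors mark the strains as labelled, and no line is fitted. *ham-3* was high and *mob-3* and *pp2A-A* low in the libraries with large shares, also within conditions.

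A measure that does not depend on the scaling of a library is the share that each member took of the summed CPM per kb of all 6. It can still go with the composition of the library. *ham-3* took 34.6, 21.0 and 29.3% in wild-type light, against 8.28, 10.96 and 8.53% in wild-type dark. *pp2A-A* took 18.4, 25.4 and 32.5% in wild-type light, against 46.5, 40.3 and 46.7% in wild-type dark, and *mob-3* 4.19 to 4.59% against 9.35 to 9.98%. In ∆*ve-1* the *ham-3* share was 10.5, 17.0 and 25.5% in light and 23.8, 13.7 and 17.6% in the dark. In light library 1 with the ∆*wc-1* label, *ham-3* and *ham-2* took 40.8 and 24.6%, and *pp2A-A* and *mob-3* 15.2 and 1.71%. The other 2 light libraries of that label, with 8.34 and 10.6% for *ham-3*, lay within the wild-type dark range. With the ∆*ve-1* ∆*wc-1* label, library 2 had 24.4% for *ham-3* in light and 19.8% in the dark, where the others had 7.08 to 9.70%. The 6 genes thus did not keep 1 ratio to each other across the libraries.

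**Figure D5:**
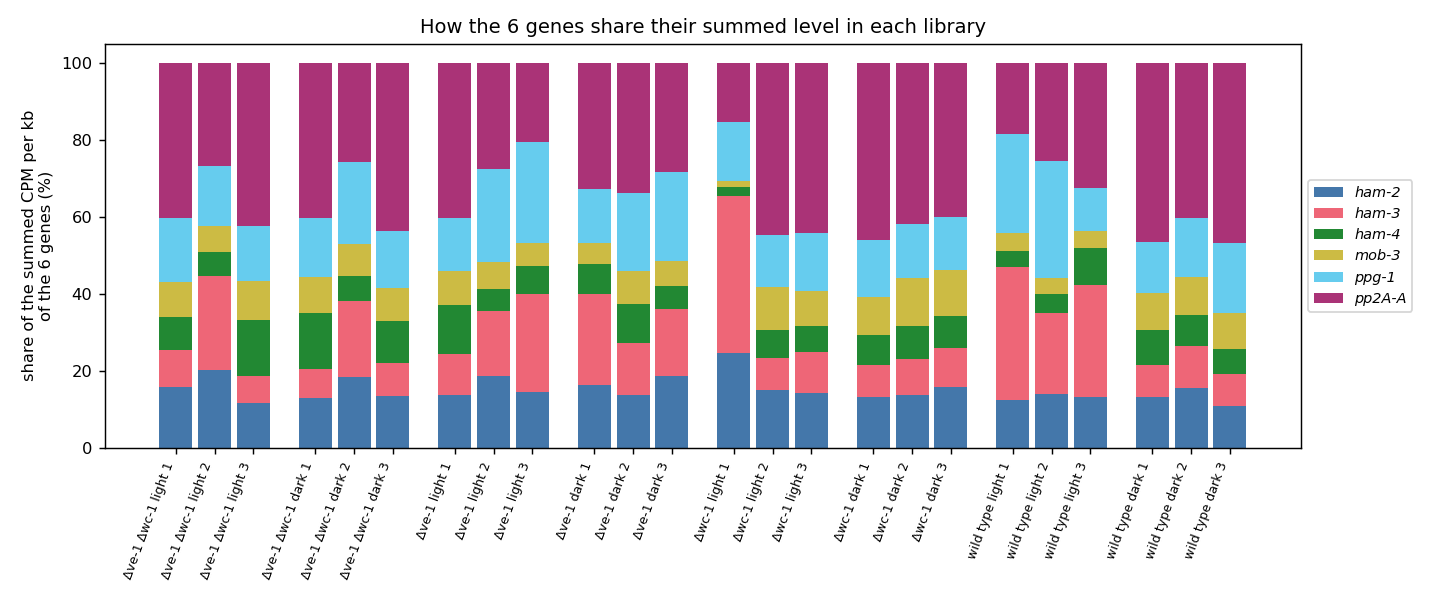
Share (%) of each gene in the summed CPM per kb of the 6 STRIPAK genes, 1 stacked bar for each of the 24 libraries, grouped by condition as labelled. *ham-3* took 21.0 to 34.6% in wild-type light and 8.28 to 10.96% in wild-type dark, and *pp2A-A* 40.3 to 46.7% in wild-type dark.

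The members did not move as 1 group. Over the 24 libraries the correlations of log2 CPM between members, given as a description, were highest for *ham-2* with *ham-3* (0.75) and *mob-3* with *pp2A-A* (0.75), and lowest for *ham-3* with *mob-3* (-0.71). *ham-4* correlated positively with *mob-3* (0.58) and *pp2A-A* (0.63) and negatively with the other 3 members. For every member, some genes outside the complex were more alike than any other member was. With 9412 genes tested and only 6 members, such genes could be found however the members moved, so this does not bear on the group. For *ham-3* they were NCU05521 (r = 0.97) and NCU02694 (0.96), and 540 of the genes tested had a higher correlation with it than *ham-2*. The number of such genes ran from 252 for *ham-2* to 978 for *ham-4*. The 2 most alike were NCU08076 (0.95) and NCU01889 (0.92) for *ham-2*, NCU09130 (0.93) and NCU03905 (0.92) for *ham-4*, NCU04172 (0.94) and NCU03357 (0.93) for *mob-3*, and NCU00212, a histone H4 gene annotated as *hH4-2* (0.92), and NCU06617 (0.92) for *ppg-1*. For *pp2A-A* they were NCU01440 (0.96) and *pkc* (NCU06544, 0.96), the protein kinase C gene of the MAK-1 pathway. These correlations share the composition of the libraries described above.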

How the data were processed

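Per the methods and the submitters' processing notes, the authors checked reads with FastQC, cleaned them with fastp, aligned them to NC12 (strain OR74A) using STAR 2.7 and counted them on the first strand with featureCounts of Subread. The authors deposited raw counts per gene, without normalization. All 24 columns were used, 0 were left out, and all 10561 locus tags matched RefSeq, which gave names and positions.

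The analysis of the counts used edgeR 4.0.16 (R 4.3.3), with TMM factors, its filter on low counts (9412 genes), 1 mean per condition in a quasi-likelihood fit of all 24 libraries (16 residual degrees of freedom), and Benjamini-Hochberg adjustment over all genes tested. 14 pairs of conditions and 3 differences between light effects were tested. The alternatives used DESeq2 1.42.0, limma-voom 3.58.1, other scaling, filters and covariates, a replicate block, and each library left out. Library totals alone and a covariate for even counts were added after the data were seen. Log2 values for correlations had a prior count of 2. Plots used Python 3.11.15 and matplotlib 3.10.9. The tests were tested on simulated data.

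The genes named are the 6 members, *ve-1*, *wc-1*, at most 2 genes of a list with the smallest p, and the 2 genes most like each member. The members and lists were chosen with earlier results of these data known. No 2 libraries were duplicates: the lowest ratio of the median chi-square to sampling noise was 19.3. Same-numbered libraries were taken to deviate together where all 3 values of r were above 0.1. This held in only 2 comparisons, both in the dark: those with the ∆*wc-1* label against the wild type (r = 0.17, 0.28 and 0.25) and those with the ∆*ve-1* ∆*wc-1* label against ∆*wc-1* (r = 0.19, 0.13 and 0.22). The highest single r was 0.58, for library 2 of the ∆*ve-1* ∆*wc-1* label in light against dark, where libraries 1 and 3 had -0.25 and -0.12.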

Additional observations from a re-analysis of the deposited data

How the results depend on the processing

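Of 102 pairs of member and comparison, 1 was called as reported, 9 in at least 1 of 12 other settings, and 12 when leaving out a library is included. No value called in any setting had the opposite sign to that of the reported fit. Values that were not called did change sign between settings. For *ham-3* the settings ran from -2.12 to 0.68 for the light effect of ∆*ve-1* minus the wild type. In light against the wild type they ran from -1.41 to 0.07 for ∆*ve-1* and from -1.74 to 0.32 for the ∆*wc-1* label. For wild-type light against dark, 1 member was called, but 0 with the replicate block (*ham-3* 2.00, adjusted p = 0.0534), with the top-10 share as a covariate and with that for even counts (*ham-3* 0.17, adjusted p = 0.768), and 0 to 2 with 1 library left out. Counts that were 0 as reported became 1 in these settings: ∆*ve-1* against the wild type in light with the even-count covariate (*pp2A-A*), limma-voom and DESeq2 on the libraries compared (*ham-3*); the libraries with the ∆*wc-1* label against it in light with the top-10 covariate (*ham-4*, -1.12, adjusted p = 0.0154) and limma-voom (*ham-3*); those with the ∆*ve-1* ∆*wc-1* label against it in light with library totals alone, limma-voom and DESeq2 on the libraries compared (*ham-3*) and DESeq2 on all libraries (*ppg-1*); the light effect of ∆*ve-1* minus the wild type with edgeR and DESeq2 on the libraries compared and limma-voom (*ham-3*); and that of the libraries with the ∆*wc-1* label with limma-voom (*ham-3*). With 1 library left out, the counts ranged from 0 to 1 for ∆*ve-1*, and likewise for the ∆*wc-1* label, against wild-type light, 0 to 2 for those with the ∆*ve-1* ∆*wc-1* label against the wild type in light and 0 to 1 for those against ∆*wc-1* in light (*ham-2*, without ∆*wc-1* light library 3). The adjusted p are from edgeR unless named. The replicate block changed no other call, in the paired comparisons or elsewhere. Over all genes, library totals alone turned 1069 calls in wild-type light against dark (483 higher) into 1113 (226 higher), and 2166 in ∆*ve-1* dark against wild-type dark (1047 higher) into 2038 (418 higher). The causes were not tested. With 3 libraries per condition, the spread between libraries and not depth limited the precision.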
